A study of Mus musculus with 8 samples.

Results

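Matrix metalloproteinases and their tissue inhibitors were examined in livers of MøFoxO1-KO mice and WT littermates on the NASH diet. The set held 10 genes chosen by name as metalloproteinases and TIMPs of fibrotic liver, out of 46517 genes counted. They were 6 Mmp genes (Mmp2, Mmp12, Mmp13, Mmp14, Mmp15 and Mmp19) and 4 Timp genes (Timp1, Timp2, Timp3 and Timp4). Earlier results of these data were known when they were chosen. Each symbol matched 1 gene of GENCODE M21. Between WT and MøFoxO1-KO livers the largest contrasts in the set were those of Mmp12, Mmp13 and Timp1. These had at most 27, 3 and 6 raw counts in any MøFoxO1-KO mouse, and for Mmp12 the groups overlapped. For Mmp14 and Timp2 the group means lay within 10% of each other. In edgeR's quasi-likelihood test none of the 7 genes past the filter on low counts passed the thresholds (0.188% of all tested genes did). In the fit without that filter (0.507%) Mmp12 passed them, as did Mmp13, 1 of the 3 genes below the filter. The Mmp13 call was lost on leaving out any of 3 mice.

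Matrix metalloproteinases are zinc-dependent endopeptidases that are made as inactive proenzymes and, once activated, cut collagens, elastin, gelatin and many non-matrix proteins. TIMPs bind the active site of metalloproteinases and block it, and Timp2 together with Mmp14 also helps to activate the Mmp2 proenzyme at the cell surface. In scarred liver, macrophages are known as a source of Mmp12 and Mmp13, and stellate cells as a source of Mmp2, Timp1 and Timp2.

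Whole liver RNA came from 4 WT mice (replicates 22 to 25) and 4 MøFoxO1-KO mice (replicates 26 to 29), all male C57BL/6, put on the diet at 6 weeks of age for 25 weeks and killed at 31 weeks after a fast of 16 hours. MøFoxO1-KO mice carried FoxO1 loxP/loxP alleles and Cre under the myeloid Lyz2 promoter, and the WT littermates carried the same loxP/loxP alleles without Cre. All mice analysed here were on this 1 diet, so each comparison is between genotypes. Because Lyz2-Cre acts in myeloid cells throughout the body and RNA of all liver cells was pooled within each mouse, fewer cells of a type and less RNA per cell cannot be told apart.

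Total counts lay between 15253218 and 18025481 per mouse, and the 10 genes together took between 0.00947 and 0.0179% of them. Mean Spearman correlations with the other mice of the same group lay between 0.963 and 0.976, so no library stood far apart by this measure. Such a correlation over all tested genes does not exclude wide differences between mice in single genes. Genes called numbered 25 with all mice and 3 to 82 with 1 mouse left out. Hepatocyte markers were abundant in every mouse (7 of 7 with counts). Foxo1 itself ranged from 328 to 467 counts over WT and from 253 to 448 over MøFoxO1-KO livers, and its log2 fold change was -0.17 (edgeR, Benjamini-Hochberg adjusted P = 0.686). Normalized counts below are counts divided by the TMM-scaled library size of the mouse relative to the mean of the 8 mice.

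Of the 10 genes, 7 passed the filter on low counts. Timp1, Mmp13 and Timp4 did not, and their fits come from edgeR without that filter. A gene was called if its log2 fold change exceeded 1.5 in size with an adjusted P under 0.05 (edgeR, quasi-likelihood, Benjamini-Hochberg over 13278 genes). By that rule 0 of the 7 genes and 0.188% of all tested genes were called. At an unadjusted P under 0.05, 2 of the 7 (Mmp12 and Mmp19) had a negative log2 fold change, 0 had a positive one, and 8.06% of all tested genes were on the negative side at that limit. Log2 fold changes were below 0 for 6 of the 7 and above 0 for Timp2, with a median of -0.59, beside -0.01 over all tested genes, of which 51.7% were below 0. Without the filter, edgeR called Mmp12 and Mmp13 (0.507% of 23665 genes called). DESeq2's Wald test called Mmp12 among the filtered genes (1.08% called), and without the filter it called Mmp12, Mmp13 and Timp1 (0.744% called). Calls in this set therefore turned on the tool and the filter.

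**Figure D1:**
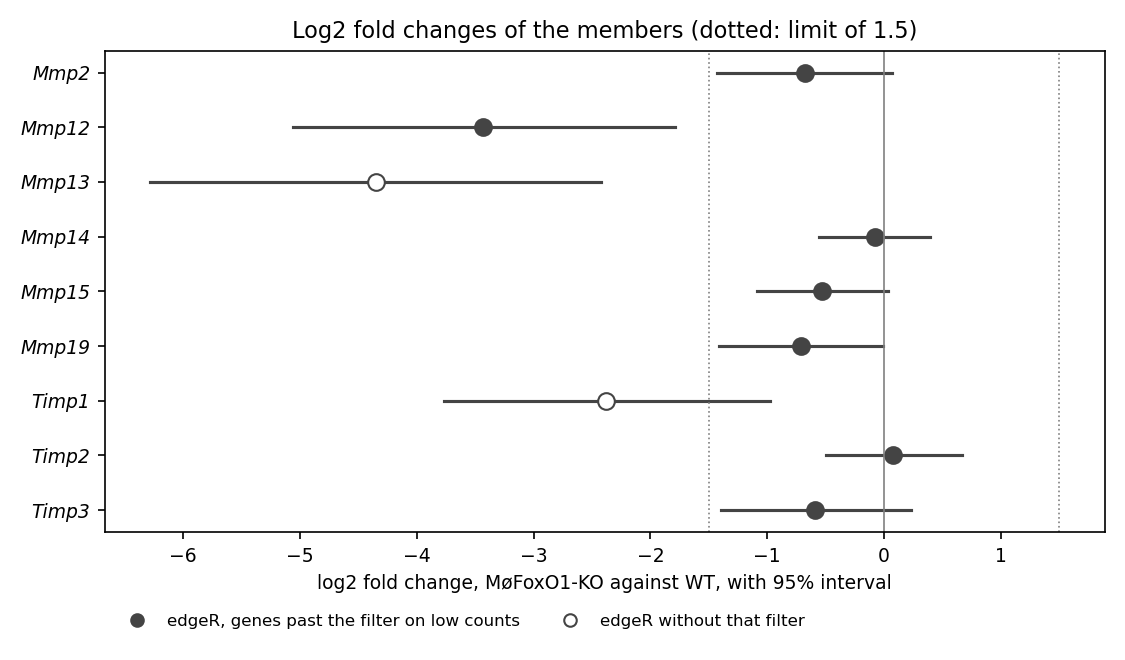
Log2 fold change of each gene in MøFoxO1-KO against WT livers on the x axis, with the 95% interval of edgeR's quasi-likelihood fit (n = 4 mice per group) as a line. Filled points are genes past the filter on low counts, open points come from the fit without it, dotted lines mark the limit of 1.5, and Timp4 is left out for its low counts; Mmp12, Mmp13 and Timp1 lie at -3.43, -4.35 and -2.38, and the other genes between -0.71 and 0.08.

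Mmp12, the macrophage elastase, lies on the plus strand of chromosome 9 of GRCm38 from 7344381 to 7369499. It had 107, 141, 313 and 28 raw counts in WT replicates 22, 23, 24 and 25. In MøFoxO1-KO replicates 26, 27, 28 and 29 it had 8, 8, 5 and 27. In 3 of 4 cases MøFoxO1-KO mice lay below all WT mice, but after normalization MøFoxO1-KO replicate 29 (30.2) lay just above WT replicate 25 (27.9), so the groups overlapped. The group means, 139 ± 110 against 13.0 ± 11.6 normalized counts (SD, n = 4), stood at a ratio of 10.6 (exact two-sided permutation test, P = 0.0571, where the smallest P that 4 mice against 4 allow is 0.0286). Its log2 fold change, -3.43, had a 95% interval from -5.06 to -1.79 (edgeR, Benjamini-Hochberg adjusted P = 0.0978). Among the 13278 tested genes, only 9, Mmp12 included, had one as low. That rank leaves out genes below the filter on low counts, such as Mmp13. Mmp12 passed the filter on its WT counts, since most MøFoxO1-KO mice had under 10. Benjamini-Hochberg adjusted P values were lower by the Wald test of DESeq2 (5.5e-05) and with unfiltered genes in edgeR (0.0117). Leaving out 1 mouse gave log2 fold changes between -4.25 and -2.78 with Benjamini-Hochberg adjusted P of edgeR between 0.0563 and 0.31.

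Mmp13, the interstitial collagenase of rodents, lies 61047 bases upstream of Mmp12 on the same strand, from 7272514 to 7283333. WT replicates 22, 23, 24 and 25 held 17, 18, 36 and 5 Mmp13 counts. In MøFoxO1-KO mice all 3 counts came from replicate 28, and replicates 26, 27 and 29 had 0. Each MøFoxO1-KO mouse lay below each WT mouse (exact two-sided permutation test, P = 0.0286). Summed over mice and scaled by library size, WT livers had 23.2 times the counts of MøFoxO1-KO livers, with an exact 95% interval from 7.66 to 115 that covers counting error only. The fit of edgeR without a filter called Mmp13 (Benjamini-Hochberg adjusted P = 0.0307). That call was lost on leaving out any of 3 mice, namely WT replicate 24, MøFoxO1-KO replicate 26 or MøFoxO1-KO replicate 27, with Benjamini-Hochberg adjusted P of edgeR at 0.083, 0.0534 and 0.0906, while the log2 fold changes were -3.88, -3.96 and -4.04 beside -4.35 with all mice.

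WT mice stood in the same order for both genes, with replicate 24 highest, then 23 and 22, and replicate 25 lowest. Mmp14, on chromosome 14, had that order in WT mice too (681, 621, 543 and 488 normalized counts). Among MøFoxO1-KO mice the order of Mmp12 differed from that of Mmp13. Replicate 29 had the most Mmp12 and no Mmp13, and replicate 28 the least Mmp12 and all the Mmp13.

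Both genes belong to a cluster of 10 Mmp genes between 7272514 and 7699585 on chromosome 9. The other 8 genes of the cluster had few counts. Mmp27 ranged from 4 to 18 counts in WT and from 3 to 17 in MøFoxO1-KO livers (log2 fold change -0.17 in edgeR, Benjamini-Hochberg adjusted P = 0.929). Mmp7, Mmp3, Mmp8 and Mmp10 had at most 6 counts in any mouse, and Mmp1a, Mmp1b and Mmp20 had 0 in all 8. Exons of Mmp12 share 157 bases (2.17% of its exon bases) with Mmp1b on the other strand, which had no counts.

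**Figure D2:**
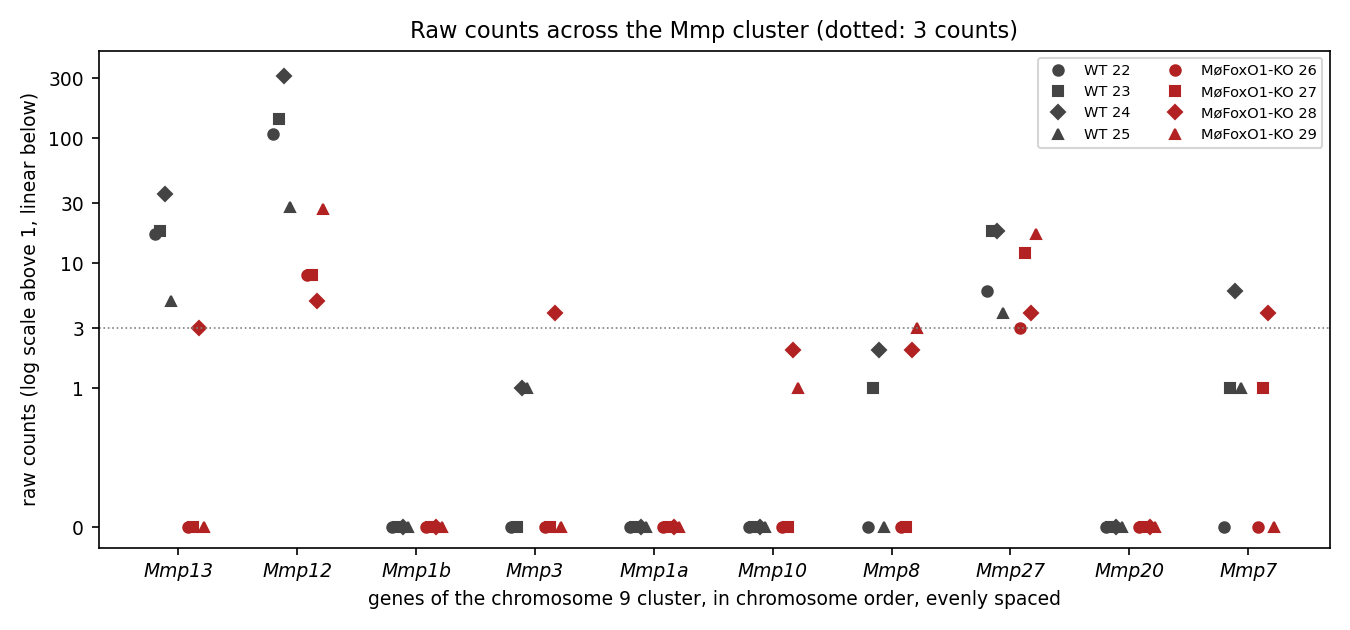
Raw counts in each of the 8 mice (y axis, logarithmic above 1 count and linear below) for the 10 Mmp genes of the chromosome 9 cluster, drawn in chromosome order at even spacing. WT mice are grey and MøFoxO1-KO mice red; Mmp12 reaches 313 and Mmp13 36 counts in WT mice, against at most 27 and 3 in MøFoxO1-KO mice, while both groups of Mmp27 span about the same counts.

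Sequence around the starts of these neighbours is shown because they had the widest contrasts of the cluster. RefSeq promoters on GRCm38.p6, which hold 250 bases before and 50 after a transcription start, were available for 8 of the 10 genes (9 promoters, 2 of them of Mmp12). In all, 4 motifs were searched on both strands: the AP-1 site TGANTCA, the FoxO site GTAAACA, the STAT6 site TTCNNNNGAA and the TATA box TATAAA. A match is a string of letters in this window and not a measured site. Below, matches stand in capitals, 5′ to 3′ on the plus strand, for Mmp13 (chr9:7272264-7272563) and for the downstream start of Mmp12 (chr9:7347124-7347423).

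Mmp13: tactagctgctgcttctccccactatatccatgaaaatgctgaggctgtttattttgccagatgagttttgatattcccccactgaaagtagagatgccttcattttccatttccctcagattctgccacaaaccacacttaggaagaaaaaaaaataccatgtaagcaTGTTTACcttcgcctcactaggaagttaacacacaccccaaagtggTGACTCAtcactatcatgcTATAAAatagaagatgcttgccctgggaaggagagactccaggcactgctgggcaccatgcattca

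Mmp12: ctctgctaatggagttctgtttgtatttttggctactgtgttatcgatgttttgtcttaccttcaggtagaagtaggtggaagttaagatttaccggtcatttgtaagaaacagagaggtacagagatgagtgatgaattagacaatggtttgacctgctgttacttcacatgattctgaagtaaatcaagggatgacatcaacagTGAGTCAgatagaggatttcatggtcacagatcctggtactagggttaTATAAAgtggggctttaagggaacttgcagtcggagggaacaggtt

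Each of these windows held 1 AP-1 match and 1 TATA box match. Counting the start as 0, the AP-1 match spanned -35 to -29 at Mmp13 (TGACTCA) and -44 to -38 at Mmp12 (TGAGTCA). The TATA box match lay from -16 to -11 at Mmp13 and from 4 to 9, past the annotated start, at Mmp12. A FoxO match (TGTTTAC, on the minus strand) was present at Mmp13 only among the 9 promoters, from -81 to -75. Among all 32851 RefSeq promoters searched, 7.81% held an AP-1 match, 13.6% a TATA box match, 1.54% both, 3.65% a FoxO match and 6.95% a STAT6 match. The other 7 promoters, the upstream start of Mmp12 and those of Mmp14, Mmp15, Timp1, Timp2, Timp3 and Timp4, had no exact match to the 4 motifs. Variants of these strings were not searched, so sites with other letters would be missed. For the upstream start of Mmp12 and for Mmp14, the bases after the start were not found in a transcript of the gene. None of these 4 motifs overlapped another in the windows shown.

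Among genes that encode AP-1 and other regulators, 14 of 17 were tested, 3 above 0 and 11 below, with a median log2 fold change of -0.17, and none was called. Upper-quartile scaling turned Fos to the other direction. Jun, a subunit of AP-1, averaged 540 ± 148 normalized counts over WT and 251 ± 64.1 over MøFoxO1-KO livers (SD, n = 4 each), without overlap of mice. Its log2 fold change was -1.10 (edgeR, Benjamini-Hochberg adjusted P = 0.0953). For Jund, another AP-1 subunit, the log2 fold change was -0.54 (edgeR, Benjamini-Hochberg adjusted P = 0.15), and for Junb it was 0.10 (edgeR, Benjamini-Hochberg adjusted P = 0.839). The groups did not overlap for Jund either, and overlapped for Junb. Il1b, an inflammatory cytokine known to induce metalloproteinases, had a log2 fold change of 1.98 (edgeR, Benjamini-Hochberg adjusted P = 0.204).

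Mmp2, the gelatinase that stellate cells secrete, lies on chromosome 8 from 92827328 to 92853417. Counts were 89, 45, 97 and 134 for WT replicates 22 to 25, against 65, 33, 75 and 40 for MøFoxO1-KO replicates 26 to 29. In 3 of 4 cases WT mice lay above all MøFoxO1-KO mice, and WT replicate 23 (44.2 normalized counts) fell within their range of 39.4 to 71.2. Means were 87.6 ± 36.5 (SD, n = 4) and 54.4 ± 14.8 (SD, n = 4) normalized counts (exact two-sided permutation test, P = 0.143). In the fit over all genes its log2 fold change was -0.68, with a 95% interval from -1.43 to 0.07 (edgeR, Benjamini-Hochberg adjusted P = 0.345), and it ranged from -0.90 to -0.41 when 1 mouse was left out.

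Mmp14 encodes a membrane-bound collagenase that activates the Mmp2 proenzyme. Its gene spans 54431612 to 54441265 on chromosome 14. Normalized counts were 543, 621, 681 and 488 in WT replicates 22 to 25 and 572, 654, 323 and 658 in MøFoxO1-KO replicates 26 to 29. Apart from MøFoxO1-KO replicate 28, which was lowest of all, the mice of both groups covered the same range. The log2 fold change was -0.08 with a 95% interval from -0.56 to 0.39 (edgeR, Benjamini-Hochberg adjusted P = 0.883). Its sign changed when MøFoxO1-KO replicate 28 was left out (0.12).

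Mmp15, a second membrane-type metalloproteinase (chromosome 8 from 95352268 to 95374293), had 749, 838, 575 and 513 normalized counts in WT replicates 22 to 25. In MøFoxO1-KO replicates 26 to 29 it had 605, 385, 582 and 278. Replicates 22 and 23 lay above and replicates 27 and 29 below all mice of the other group, and of the remaining mice both MøFoxO1-KO mice (605 and 582) lay above both WT mice (575 and 513). At a log2 fold change of -0.53 (95% interval from -1.09 to 0.03) Mmp15 did not pass the test (edgeR, Benjamini-Hochberg adjusted P = 0.328).

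Mmp19, a metalloproteinase of basement membrane components, lies on chromosome 10 from 128790953 to 128800824. WT replicates 22 to 25 had 555, 1066, 364 and 516 normalized counts, and MøFoxO1-KO replicates 26 to 29 had 548, 346, 307 and 324. WT replicate 23 stood far above the rest, and MøFoxO1-KO replicate 26 lay among the WT mice. The log2 fold change was -0.71 with a 95% interval from -1.41 to -0.01 (edgeR, Benjamini-Hochberg adjusted P = 0.289). Without WT replicate 23 or another single mouse it lay between -0.94 and -0.33. Tmem198b on the opposite strand shares 789 exon bases with Mmp19 (23.1% of its exon length) and had between 27 and 84 counts per mouse, and the strand setting of the counts is not given in the sources used here.

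**Figure D3:**
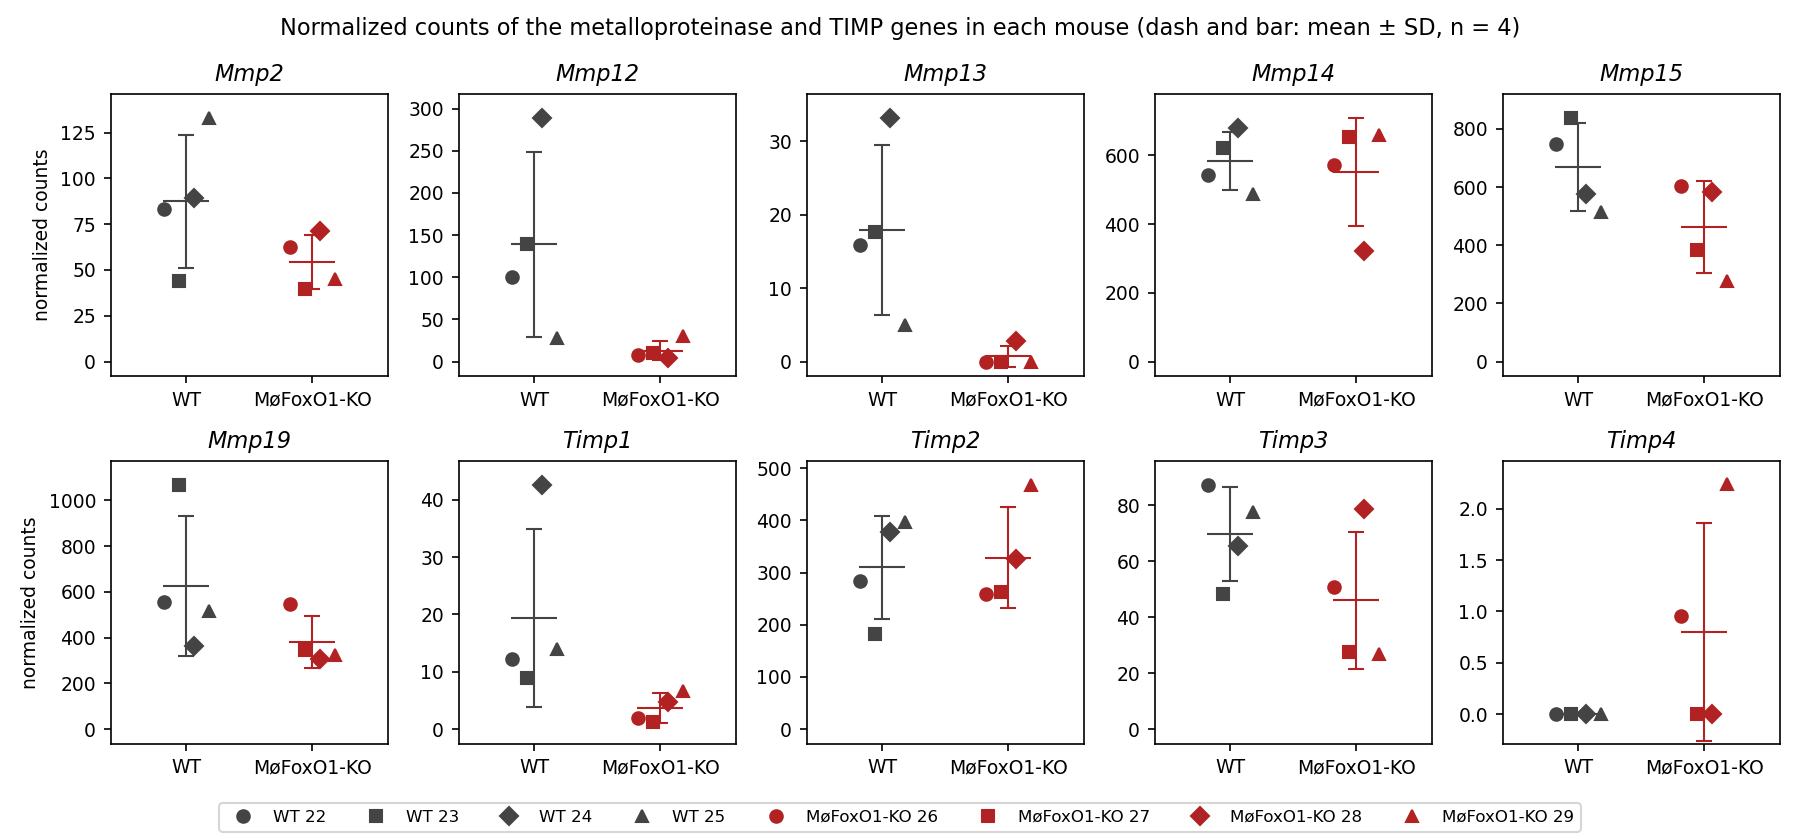
Normalized counts (y axis, a separate linear scale for each gene) of the 10 genes in each of the 8 mice, with WT in grey and MøFoxO1-KO in red. The dash and bar give mean ± SD (n = 4); the groups separate for Mmp13 and Timp1, nearly do so for Mmp12, and overlap for the other genes.

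Timp1, the inducible inhibitor of most soluble metalloproteinases, lies on the X chromosome from 20870166 to 20874735, inside the span of Syn1 on the other strand without shared exon bases. WT replicates 22 to 25 held 13, 9, 46 and 14 Timp1 counts, and MøFoxO1-KO replicates 26 to 29 held 2, 1, 5 and 6. All 4 MøFoxO1-KO mice lay below all 4 WT mice (exact two-sided permutation test, P = 0.0286), and WT replicate 24 had over 3 times the count of the next mouse. Means were 19.4 ± 15.5 (SD, n = 4) and 3.64 ± 2.56 (SD, n = 4) normalized counts. In the fit of edgeR without a filter the log2 fold change was -2.38 with a 95% interval from -3.77 to -0.98 (Benjamini-Hochberg adjusted P = 0.125). Timp1 was called by DESeq2 when no filter was used (Benjamini-Hochberg adjusted P = 0.0384). Timp1 and Mmp13 were the 2 of 10 genes with all MøFoxO1-KO mice below all WT mice, and 2.96% of the 23665 genes with a count did so. The 10 genes were chosen with earlier results of these data known, so their share is no independent measure.

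Timp2, the constitutive inhibitor that binds Mmp14 and the Mmp2 proenzyme, lies on chromosome 11 from 118301069 to 118355740. Its normalized counts were 284, 182, 377 and 397 in WT replicates 22 to 25 and 259, 263, 326 and 467 in MøFoxO1-KO replicates 26 to 29. Values of both groups were interleaved, with the lowest in WT replicate 23 and the highest in MøFoxO1-KO replicate 29. Its log2 fold change was 0.08, with a 95% interval from -0.50 to 0.67 (edgeR, Benjamini-Hochberg adjusted P = 0.903). Dropping WT replicate 23 turned it to -0.10, and dropping MøFoxO1-KO replicate 29 to -0.13.

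Timp3, a matrix-bound inhibitor that also blocks the sheddase Adam17, lies on chromosome 10 from 86300372 to 86349506. WT replicates 22 to 25 held 93, 49, 71 and 78 Timp3 counts, and MøFoxO1-KO replicates 26 to 29 held 53, 23, 83 and 24. MøFoxO1-KO replicates 27 and 29 lay below all WT mice, and replicate 28 lay among the highest WT mice. Its log2 fold change of -0.59 had a 95% interval from -1.40 to 0.23 (edgeR, Benjamini-Hochberg adjusted P = 0.456). Exons of Syn3 on the other strand share 1733 bases with Timp3 (21.3% of its exon length), and Syn3 had between 5 and 37 counts. Timp4 (chromosome 6 from 115241892 to 115252205) had 0 counts in all WT mice and 1, 0, 0 and 2 in MøFoxO1-KO replicates 26 to 29, too few for a fold change.

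Levels were compared between genes per length, as TPM, within each group. In WT livers Mmp19 (23.7 ± 12.1, SD, n = 4), Mmp15 (19.9 ± 4.86) and Mmp14 (17.6 ± 3.68) were highest, and their ranges over mice overlapped. Timp2 (10.2 ± 3.23) lay below Mmp14 and above Mmp2 (3.67 ± 1.38) without overlap of the ranges of neighbours. Timp1 (2.88 ± 2.50), Mmp12 (2.56 ± 2.15), Timp3 (1.09 ± 0.230) and Mmp13 (0.891 ± 0.620) followed, each overlapping the next, and Timp4 was at 0. In MøFoxO1-KO livers Mmp14 (13.2 ± 3.21), Mmp19 (11.7 ± 3.96), Mmp15 (11.3 ± 4.54) and Timp2 (8.74 ± 2.38) formed an overlapping upper group and Mmp2 (1.89 ± 0.648) stood alone below it. Timp3 (0.604 ± 0.360) came next and lay above Timp1 (0.427 ± 0.292) in 3 of 4 mice, followed by Mmp12 (0.182 ± 0.155), Mmp13 and Timp4. TPM were not used to compare the groups, since on that scale the median log2 ratio of MøFoxO1-KO to WT over all tested genes was -0.32, against -0.01 on the TMM scale.

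Ratios between genes of the same mouse do not depend on that scaling. Timp2 made up 74.9, 74.6, 63.4 and 80.2% of the summed Timp TPM in WT replicates 22 to 25. In MøFoxO1-KO replicates 26 to 29 its share was 88.6, 93.5, 84.8 and 91.4%, above every WT mouse. The share of Timp1 was 14.1, 15.9, 31.3 and 12.3% in WT and 2.88, 1.86, 5.41 and 5.77% in MøFoxO1-KO mice, so these ranges did not overlap either. Timp3 contributed 5.28 to 11.0% in WT and 2.52 to 9.79% in MøFoxO1-KO mice. Shares of a mouse add up to the whole, so a lower share of Timp1 or Timp3 raises that of Timp2, whose own log2 fold change was 0.08. The Timp1 shares of MøFoxO1-KO replicates 26 to 29 rest on 2, 1, 5 and 6 raw counts, the same counts whose separation is given above. These shares were not tested.

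**Figure D4:**
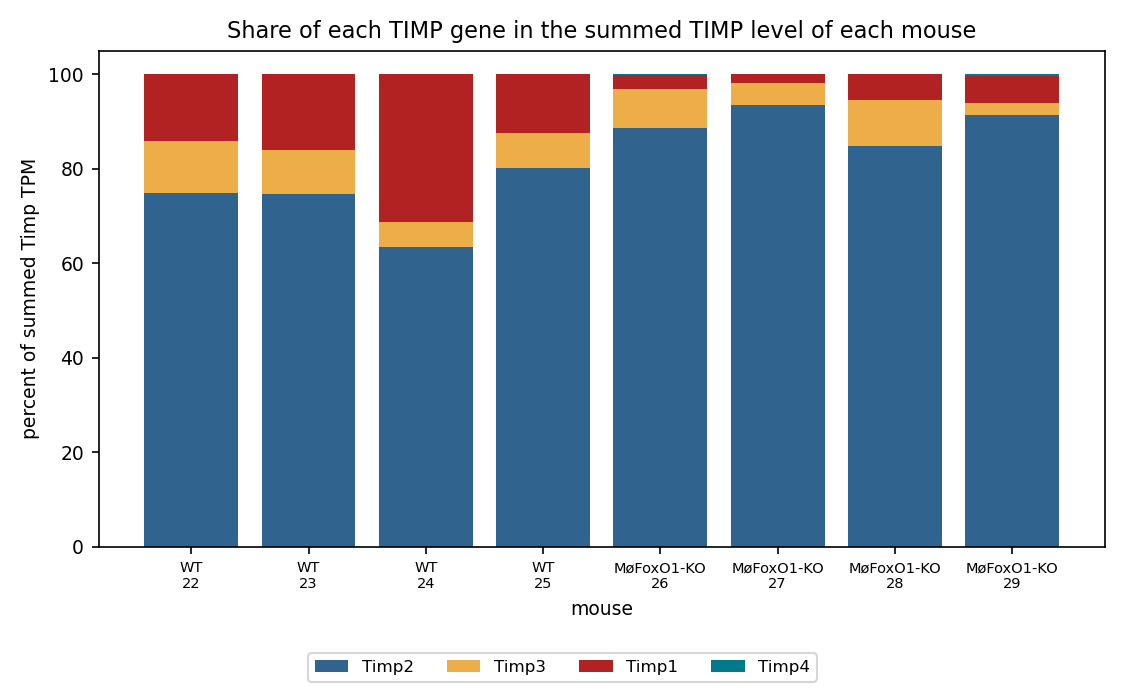
Stacked bars give the percent of the summed Timp TPM (y axis) that each of the 4 Timp genes contributed in each of the 8 mice. Timp2 takes 63.4 to 80.2% in WT mice and 84.8 to 93.5% in MøFoxO1-KO mice, and Timp1 takes at least 12.3% in WT and at most 5.77% in MøFoxO1-KO mice. Each MøFoxO1-KO part of Timp1 rests on 1 to 6 raw counts, and a smaller part of 1 gene enlarges those of the others.

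The ratio of Mmp2 to Timp2 TPM was 0.377, 0.312, 0.305 and 0.431 in WT replicates 22 to 25 and 0.309, 0.192, 0.280 and 0.123 in MøFoxO1-KO replicates 26 to 29. Only MøFoxO1-KO replicate 26 reached the WT range. The ratio of Mmp14 to Timp2 ranged from 1.11 to 3.10 in WT and from 0.896 to 2.26 in MøFoxO1-KO mice, and that of Mmp12 to Timp1 from 0.245 to 1.92 and from 0.123 to 0.982. Summed Mmp over summed Timp TPM ranged from 3.14 to 11.0 in WT and from 2.52 to 6.06 in MøFoxO1-KO mice. The ranges of these 3 ratios overlapped.

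Beyond the 10 genes, the table held 17 other Mmp genes, of which 13 had counts and 5 were tested. None was called, and at an unadjusted P under 0.05 none was past the limit. Mmp23 had the largest contrast, with 33.8 normalized counts in WT and 17.9 in MøFoxO1-KO livers (log2 fold change -0.92 in edgeR, Benjamini-Hochberg adjusted P = 0.432). Mmp9, the gelatinase of neutrophils and macrophages, ranged from 2 to 22 counts in WT and from 2 to 24 in MøFoxO1-KO mice (log2 fold change -0.06 in edgeR, Benjamini-Hochberg adjusted P = 0.976). Mmp11 had 9 to 43 and Mmp17 10 to 17 counts over the 8 mice. Mmp28 had at most 11 counts, Mmp21 at most 3, Mmp24 and Mmp25 at most 2, and Mmp16 had 0. With the members, 10 Mmp genes were tested, and all 10 had a log2 fold change below 0 on the TMM scale (median -0.43, 0 called), but Mmp17 was above 0 with the size factors of DESeq2 and with upper-quartile scaling.

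Enzymes that activate the proenzymes had 16 tested genes, 7 above and 9 below 0, with a median log2 fold change of -0.10 and 0 called. Furin, the convertase that activates membrane-type metalloproteinases, had a log2 fold change of -0.42 (edgeR, Benjamini-Hochberg adjusted P = 0.273), and the related convertase Pcsk6 one of -0.62 (edgeR, Benjamini-Hochberg adjusted P = 0.189) without overlap of the groups. Plat, which activates plasminogen, had 12 to 27 counts in WT and 0 to 12 in MøFoxO1-KO livers (log2 fold change -1.72 in edgeR, Benjamini-Hochberg adjusted P = 0.234). Serpinf2, an inhibitor of plasmin, had a log2 fold change of 0.44 (edgeR, Benjamini-Hochberg adjusted P = 0.297).

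Other inhibitors and cofactors were abundant plasma proteins in part. Of 10 tested genes, 6 were above and 4 below 0 (median 0.12, 0 called). Mug1, a murinoglobulin that traps proteases, had 40105 normalized counts in WT and 59873 in MøFoxO1-KO livers without overlap of the groups (log2 fold change 0.58 in edgeR, Benjamini-Hochberg adjusted P = 0.189). ADAM and ADAMTS genes, a sister family of metalloproteinases, had 3 tested genes above and 12 below 0 (median -0.19, 0 called). Adamts15, which cleaves proteoglycans, had 58.8 normalized counts in WT and 21.5 in MøFoxO1-KO livers (log2 fold change -1.45 in edgeR, Benjamini-Hochberg adjusted P = 0.168), and Adam9 had a log2 fold change of -0.62 (edgeR, Benjamini-Hochberg adjusted P = 0.147). The groups did not overlap for Adamts15 and overlapped for Adam9.

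Substrates of the enzymes had 22 tested genes, 4 above and 18 below 0, with a median log2 fold change of -0.34 and 0 called. Nid1, a basement membrane glycoprotein, had 341 normalized counts in WT and 186 in MøFoxO1-KO livers (log2 fold change -0.88 in edgeR, Benjamini-Hochberg adjusted P = 0.0851) and no overlap of the groups. Lamc1, a laminin chain, had a log2 fold change of -0.55 (edgeR, Benjamini-Hochberg adjusted P = 0.21), Col1a1 of -1.28 (0.193) and Col3a1 of -0.76 (0.25, each Benjamini-Hochberg adjusted by edgeR), the latter being chains of fibrillar collagens. Nid1, Lamc1 and Col1a1 were the 3 of 23 substrates with all MøFoxO1-KO mice below all WT mice, beside 2.96% of all genes with a count. The substrate list was also chosen with earlier results of these data known, so its share is no independent measure. For Col3a1 the groups overlapped.

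Markers of liver cell types were set beside these values. Of 9 macrophage markers, 8 had a log2 fold change above 0 (median 1.03, 0 called), and their summed normalized counts were 2946 to 5028 in WT and 3211 to 14479 in MøFoxO1-KO mice. The contrast was widest for Marco, a scavenger receptor of resident macrophages, at 38.7 ± 34.0 against 1409 ± 1219 normalized counts (SD, n = 4 each) (log2 fold change 5.18 in edgeR, Benjamini-Hochberg adjusted P = 0.087). Timd4, a receptor of long-lived Kupffer cells, had a log2 fold change of 2.08 (edgeR, Benjamini-Hochberg adjusted P = 0.0968), and Lyz2 one of -0.77 (edgeR, Benjamini-Hochberg adjusted P = 0.586). MøFoxO1-KO replicate 29, with the highest sum of macrophage markers (14479), had the most Mmp12 counts of its group (27), while replicate 27, with the next highest sum (9833), had 8.

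Lipid-associated macrophage markers were mixed, with 3 of 7 above and 4 below 0 and sums of 2260 to 3846 in WT and 2330 to 3627 in MøFoxO1-KO mice. Most of these sums came from Spp1, Lpl and Cd9, with means of 1280, 974 and 394 normalized counts in WT livers. Trem2 and Gpnmb, at 43.6 and 70, added little to them. Spp1 was also on the cholangiocyte and substrate lists. Gpnmb was the only marker past both thresholds, with 22.9 to 141 normalized counts in WT and 1.12 to 7.59 in MøFoxO1-KO mice (log2 fold change -4.13 in edgeR, Benjamini-Hochberg adjusted P = 0.0382). Trem2, a lipid receptor of these cells, ranged from 11.9 to 88.6 in WT and from 0 to 6.64 in MøFoxO1-KO mice (log2 fold change -3.88 in edgeR, Benjamini-Hochberg adjusted P = 0.0983). In WT mice both, like Mmp12, Mmp13 and Timp1, were highest in replicate 24. That replicate also had the most Mmp14 of the WT mice (681 normalized counts). Its marker sums were the highest of WT for macrophages (5028), lipid-associated macrophages (3846), neutrophils (86.8) and T and B cells (187). For the other marker lists another WT mouse was highest. Fabp5, of the same list, had a log2 fold change of 1.91 (edgeR, Benjamini-Hochberg adjusted P = 0.131).

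Stellate and fibroblast markers had 4 of 9 above and 5 below 0 (median -0.06), with sums of 4421 to 7309 in WT and 5039 to 8228 in MøFoxO1-KO mice. At an unadjusted P under 0.05, 2 of the 9 were below 0, the collagens Col1a1 and Col3a1 given above, while the log2 fold changes of the other 7 were -0.50 for Pdgfrb, -0.18 for Lum, -0.06 for Lrat, 0.11 for Reln, 0.12 for Des, 0.19 for Dcn and 0.53 for Acta2. Hepatocyte markers had 5 of 7 above and 2 below 0 (median 0.19, 0 called), with sums of 1028518 to 1473660 in WT and 1223820 to 1813751 in MøFoxO1-KO mice. Of these, Serpina1c (log2 fold change 1.49, adjusted P = 0.037) and Apoa1 (1.07, adjusted P = 0.0765, both by edgeR and Benjamini-Hochberg) separated the groups without overlap. For MøFoxO1-KO mice above all WT mice, as here and for Mug1, no share over all genes was taken. Neutrophil markers, which included the metalloproteinase genes Mmp8 and Mmp9, summed to 29.5 to 86.8 in WT and 11.5 to 81.7 in MøFoxO1-KO mice. T and B cell markers (43.3 to 187 and 136 to 320) and endothelial markers (1533 to 3353 and 2692 to 3988) were above 0 in all 5 and all 6 tested genes, and cholangiocyte markers (1310 to 1727 and 979 to 1495) below 0 in all 5. Spp1 made up most of the cholangiocyte sums, with means of 1280 normalized counts in WT and 1090 in MøFoxO1-KO livers. No marker list was at 0 in any mouse, and the part of cell numbers in the values of the metalloproteinase genes was not tested.

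Genes with the profile most like a member were taken by the root-mean-square difference of log2 CPM over the 8 mice after centring each gene. For Mmp12 the 5 nearest of the tested genes were Fam83a (0.568), Ccdc120 (0.662), Dusp8 (0.705), Gprc5b (0.789) and Ly6d (0.821), beside a median difference of 1.87 over all of them. Timp1 was nearest to Adamts15 (0.411), followed by Tmem119 (0.467), Egr1 (0.479), Vldlr (0.489) and Apbb1 (0.491), with a median of 1.16. Mmp14 was nearest to Rp2 (0.103), Ccdc86 (0.110), Rbm43 (0.139), Capn10 (0.140) and Fuca2 (0.147), with a median of 0.446. A gene flat over the mice would lie at 1.85 from Mmp12, 1.13 from Timp1 and 0.33 from Mmp14. The medians for Mmp12 and Timp1 were near these values, so they mostly give the spread of the member itself. A prior count of 2 in the log2 CPM also narrows the contrast of Timp1, which had 1 to 6 counts in MøFoxO1-KO mice. None of the 15 genes named here was called, beside 0.188% of all tested genes, and the smallest adjusted P among them was 0.0621 for Gprc5b (edgeR, Benjamini-Hochberg). The filtered fit of edgeR did not call Mmp12 or Mmp14, and the unfiltered fit did not call Timp1. Because the genes were picked for likeness to these members, their lack of calls is no separate result.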

How the data were processed

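Polyadenylated RNA of 8 livers (4 per genotype) was sequenced. The authors deposited 1 table of raw read counts per Ensembl gene, without normalization. The submitters' processing notes name STAR, featureCounts and mm10 (GRCm38). Versions, strand setting and treatment of multi-mapped reads are not given in the sources used here. The table also gives summed exon length, which the authors deposited per gene. Symbols came from GENCODE M21, and promoters from RefSeq on GRCm38.p6.

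Genes were filtered with filterByExpr (minimum count 10, minimum total 15), scaled by TMM and tested with edgeR 4.0.16 in R 4.3.3 by quasi-likelihood, without covariates. Benjamini-Hochberg adjustment ran over all 13278 genes. Calls needed an adjusted P under 0.05 and a log2 fold change above 1.5 in size. Single genes were compared by exact permutation tests. Total counts of 15253218 to 18025481 limit precision for genes with few counts, and counting intervals (95%) cover counting error only.

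Alternatives were DESeq2 1.42.0, limma-voom (limma 3.58.1), other scalings and filters, the robust fit and leaving out each mouse. The fits of edgeR, DESeq2 and limma-voom were first tested on simulated counts with known changes. Members, lists and tests were chosen with earlier results of these data known. Named genes are the 10 members, other Mmp genes with counts, up to 4 genes per list with an unadjusted P under 0.05, and the 5 nearest profiles of Mmp12, Mmp14 and Timp1. Marker genes, Mmp genes without counts, Junb and Foxo1 were named after their values were seen. Tables and plots used pandas 2.3.3, numpy 2.4.6, scipy 1.17.1 and matplotlib 3.10.9 in Python 3.11.15.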

Additional observations from a re-analysis of the deposited data

Results flagged for a closer look

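Groups of 4 mice were searched for a mouse whose gap to its nearest neighbour took more of the range of the group than the 95% critical value of Dixon's test allows, in 17 groups of normalized counts. About 1 in 20 groups is expected to pass by chance. Timp1 in WT replicate 24 had 42.5 normalized counts, with a gap of 0.849 of the range, and without that mouse the log2 fold change of Timp1 was -1.66 (edgeR on unfiltered genes, Benjamini-Hochberg adjusted P = 0.348). Mmp19 in MøFoxO1-KO replicate 26 had 548 normalized counts, with a gap of 0.835 of the range. No cause was tested for either.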

How the results depend on the processing

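No paired analysis was possible because the groups share no replicate number. Genes called among all tested genes numbered 25, against 144 with DESeq2, 120 without a filter, 13 with limma-voom and 3 to 82 with 1 mouse left out, and genes at an adjusted P under 0.05 numbered 39, against 586, 205, 24 and 3 to 129. Of the genes of the set past the filter, 0 of 7 were called, also with any mouse left out, against 1 with DESeq2 and 2 of 10 without a filter, and the same numbers held for all Mmp genes. Mmp13, fitted without the filter, was called in 5 of 8 fits with 1 mouse left out. Genes of the set at an unadjusted P under 0.05 numbered 2, against 6 without a filter, 1 with at least 10 counts in every mouse, 1 with limma-voom, 1 with the robust fit and 1 to 5 with 1 mouse left out. With 1 mouse left out the log2 fold change of Mmp14 ranged from -0.18 to 0.12, reaching 0.00 on dropping WT replicate 24 and 0.12 on dropping MøFoxO1-KO replicate 28. That of Timp2 ranged from -0.13 to 0.23, at -0.10 on dropping WT replicate 23 and -0.13 on dropping MøFoxO1-KO replicate 29. On the log2 scale the ratio of mean levels of Mmp14 was -0.42 with TPM and -0.08 with RPKM on TMM-scaled library sizes, and that of Timp2 turned from -0.23 to 0.09, beside medians over all tested genes of -0.32 and -0.01. Mmp2, Mmp12, Mmp13, Mmp15, Mmp19, Timp1 and Timp3 kept a negative log2 fold change in every alternative run. The cause of these shifts was not tested. Depth limits Mmp13, Timp1 and Timp4, which did not pass the filter.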
